A study of Homo sapiens with 70 samples.

Results

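The 4 INK4 inhibitors CDKN2A, CDKN2B, CDKN2C and CDKN2D, the KIP inhibitors CDKN1B and CDKN1C, and the 3 pocket protein genes RB1, RBL1 and RBL2 were followed across all libraries of 3 RNA-seq experiments. They were chosen as a fixed list of 9 genes, without CDKN1A, out of the 44503 genes of each count table, and all 9 were present in every table. The first experiment used IMR90 human lung fibroblasts that all carried the pLNCX2 ER:HRAS G12V construct, an oncogenic RAS fused to an oestrogen receptor domain that 4-hydroxytamoxifen (4OHT) switches on. Its groups were growing cells at day 0 with the empty pMSCV miR vector (Grow) or with a pMSCV miR hairpin against HMGA1 (Grow-shA1), and cells in oncogene-induced senescence after 6 days in 100 nM 4OHT with the same vector (OIS, called RIS in the sample titles) or hairpin (OIS-shA1), with 8 libraries each. The second experiment used the same ER:HRAS G12V fibroblasts with an empty pSuper and an empty pMSCV miR vector at day 0 (Grow-v-v) or after 6 days in 4OHT (OIS-v-v), and 4OHT-treated cells in which 1 or both vectors carried a hairpin against CEBPB (OIS-shCEBPB), p53 (OIS-shp53) or both (OIS-shCEBPB-shp53), with 5 libraries each. The last used H1299, a non-small cell lung carcinoma line, with the empty pMSCV miR vector (7 libraries) or the HMGA1 hairpin (H1299-shA1, 6 libraries). Each gene was targeted by a single hairpin in stably transduced cells, and every OIS group differed from its growing control in 4OHT as well as in RAS activity, so the effects of the drug and of RAS cannot be told apart.

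INK4 proteins bind CDK4 and CDK6 and block their assembly with D-type cyclins, whereas KIP proteins bind cyclin-CDK complexes and mainly inhibit those of CDK2. Active cyclin-CDK complexes phosphorylate RB1, RBL1 (p107) and RBL2 (p130), which otherwise hold E2F target genes silent; RBL1 and RBL2 do so within the DREAM complex, and RBL1 is itself an E2F target gene. In fibroblasts, induction of the INK4 locus and active pocket proteins are classical features of the stable arrest called senescence.

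The stretches ahead of 4 of the starts are shown because these genes moved farthest or in opposite directions in OIS. For a gene with several windows, the 1 with most matches is shown. All are the 250 bases before a start in RefSeq on GRCh38.p14, written 5′ to 3′ on the gene's strand. The CDKN2A window, on the minus strand at chr9:21974858-21975107, lies before the start of the p16INK4a transcript, and the CDKN2B window, also on the minus strand, is at chr9:22009306-22009555. In both, capitals mark GC boxes (GGGCGG on either strand), of which the first has 1 and the second 2. GC boxes were also found before genes that fell. The CDKN2C window shown next holds 5, not capitalised there, and windows of CDKN2D hold 2 and of CDKN1B 1.
CDKN2A: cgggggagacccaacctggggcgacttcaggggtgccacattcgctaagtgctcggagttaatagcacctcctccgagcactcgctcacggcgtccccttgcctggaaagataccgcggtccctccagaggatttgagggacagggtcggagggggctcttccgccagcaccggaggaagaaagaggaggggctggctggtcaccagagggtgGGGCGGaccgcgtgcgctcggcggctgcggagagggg
CDKN2B: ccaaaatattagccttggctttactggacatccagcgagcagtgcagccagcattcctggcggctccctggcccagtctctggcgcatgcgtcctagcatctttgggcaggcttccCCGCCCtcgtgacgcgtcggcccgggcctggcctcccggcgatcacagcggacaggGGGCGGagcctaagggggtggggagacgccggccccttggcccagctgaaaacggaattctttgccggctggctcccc
The CDKN2C window is at chr1:50968456-50968705 on the plus strand and the RBL1 window at chr20:37095998-37096247 on the minus strand. Capitals mark letters of the E2F motif, TTCCCGC or TTGGCGC in CDKN2C (2 matches on the 2 strands) and the longer forms TTTCCCGC, TTTGGCGC, TTTCGCGC or TTTGCCGC in RBL1 (2 matches).
CDKN2C: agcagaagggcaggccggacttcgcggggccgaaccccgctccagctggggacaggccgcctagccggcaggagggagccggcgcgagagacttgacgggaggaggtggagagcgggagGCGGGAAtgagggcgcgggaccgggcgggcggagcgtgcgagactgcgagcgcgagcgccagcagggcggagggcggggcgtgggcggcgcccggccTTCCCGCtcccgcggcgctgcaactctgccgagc
RBL1: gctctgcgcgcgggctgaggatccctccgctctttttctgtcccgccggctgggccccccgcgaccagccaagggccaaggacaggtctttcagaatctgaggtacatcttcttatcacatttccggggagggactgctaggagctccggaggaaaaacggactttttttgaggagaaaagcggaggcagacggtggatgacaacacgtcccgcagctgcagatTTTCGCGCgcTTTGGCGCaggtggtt
Of 35116 such windows in the RefSeq table, 42.6% held a GC box, 7.81% the short E2F letters and 2.79% the longer ones on either strand. The long and short forms overlap, and each match is a description of the letters, not a bound site. No window of CDKN2D, CDKN1B or RB1, which also fell in OIS, held either form. Windows of CDKN2A, CDKN2B and RBL2 held neither as well, and those of CDKN2C held none of the longer forms. RefSeq windows were found for 8 of the 9 genes, 12 in all. The CDKN2A window not shown held no GC box, and the CDKN2C windows not shown held no E2F letters. Windows shown for these 2 genes were picked for their matches, which limits a comparison with the shares over all windows. Among the 12 windows, no match was found for the AP-1 letters TGACTCA (4.2% of all windows), the ETS letters CCGGAAG (8.52%) or the CHR letters TTTGAA (13.3%), and CCAAT (32% of all windows) was found in windows of CDKN2C, CDKN2D, CDKN1B and RBL2.

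The count tables use hg19. CDKN2A lies at chr9:21967751-21995300 and CDKN2B at chr9:22002902-22009362, neighbours on the minus strand at 9p21. The counts sum reads over all annotated exons of a gene, untranslated ends included, so the CDKN2A value adds the p16INK4a and ARF transcripts, and 341 bases (8.07%) of its exons are shared with the antisense gene CDKN2B-AS1. CDKN2C lies at chr1:51426417-51440305 (plus), CDKN2D at chr19:10677138-10679735 (minus), CDKN1B at chr12:12867992-12874402 (plus) and CDKN1C at chr11:2904443-2907043 (minus). RB1 lies at chr13:48877887-49056122 (plus), RBL1 at chr20:35624752-35724398 (minus) and RBL2 at chr16:53467889-53525561 (plus). RBL1 shares 211 exon bases (3.54%) with ENSG00000269846 and RBL2 shares 610 (8.69%) with AKTIP, both on the other strand. Strand was ignored when the tables of the first experiment and of H1299 were counted, so reads in these stretches cannot be divided between the genes.

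Total counts ran from 1903607 to 22136571 in the first experiment, from 14544053 to 24890797 in the second and from 17747670 to 23649765 in the third. The lowest total was that of OIS replicate 4, and the counts of called genes among the 9 and in the lists are therefore also given without it. In the second experiment, replicates 4 and 5 stood apart from replicates 1 to 3 in every group on the first component of the within-group deviations (43.0% of their variation); the labels name no batch, so values within each set are given beside the results they touch. As a check of the labels, HMGA1 differed by -3.79 (Grow-shA1), -3.62 (OIS-shA1) and -2.31 (H1299-shA1) on the log2 scale, and CEBPB by -3.06 in the single and -3.19 in the double knock-down. All 8 fibroblast markers listed (COL1A1 and others) were at 1 CPM or more in every IMR90 group, and all 8 fell in OIS, with a median summed level of 42400 CPM in Grow and 6160 in OIS. The endothelial markers summed to at most 2.12 CPM in any library and of the leukocyte markers CD68 alone reached 1 CPM; the leukocyte sum was 15.7 to 22.5 CPM in Grow and 44.4 to 58.3 in OIS. The epithelial markers summed to a median of 88.6 CPM in Grow and 52.7 in OIS, and all 4 of those tested fell. In OIS-v-v against Grow-v-v, 7 of the 8 fibroblast markers fell. Their median summed level was 47800 CPM in Grow-v-v and 20900 in OIS-v-v. Of the 3 epithelial markers tested there, 2 fell and 1 rose. The part of these marker shifts in the results below was not tested. In H1299 the epithelial markers summed to a median of 876 CPM and the fibroblast markers to 1710. There, 2 of 6 epithelial and 2 of 8 fibroblast markers were at 1 CPM or more.

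Levels are given below as normalized CPM, which are counts over the library total, scaled with TMM factors within 1 table, and differences as log2 fold changes with their standard error (SE) from edgeR's quasi-likelihood fit across all genes. A gene is said to rise or fall where its Benjamini-Hochberg adjusted p was under 0.05. Levels of different genes are compared only after division by exon length (CPM per kb). This length covers all annotated exons of a gene, 4226 bases for CDKN2A and 1503 for CDKN2D. It need not be that of the transcripts expressed, which limits orders and shares across genes. Levels of different experiments are not tested against each other because the tables were normalized separately. In bulk RNA, fewer cells with a transcript and less of it in each cell cannot be told apart.

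The first question was what OIS does to each inhibitor. In OIS against Grow, 8 of the 9 genes passed the test. The INK4 genes split: CDKN2B rose 7.22-fold and CDKN2A 2.2-fold, whereas CDKN2C fell 30.1-fold and CDKN2D 2.7-fold. Both KIP genes, RB1 and RBL1 fell, and RBL2 did not pass. In this contrast 74.8% of all 13304 genes tested were called. Of all those tested, 38.8% were called higher in OIS and 35.9% lower, so a call as such sets the 9 genes little apart from the table. When the fit used library sizes alone, 6963 genes were higher and 3561 lower, against 5164 and 4781, and the median log2 fold change of all genes moved from 0.03 to 0.22.

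CDKN2B, the p15INK4b gene, ranged from 12.6 to 21.9 CPM in Grow (median 18.8) and from 113 to 147 in OIS (median 128). All OIS values exceeded all Grow values, and the log2 fold change was 2.85 (SE 0.0835, edgeR adjusted p = 2.71e-22). CDKN2A, which encodes p16INK4a and ARF, ranged from 1.99 to 3.52 CPM in Grow (median 2.7) and from 4.31 to 10.7 in OIS (median 6.07). The groups did not overlap, and the highest OIS value was that of the shallow replicate 4. Its log2 fold change was 1.14 (SE 0.14, edgeR adjusted p = 2.52e-08) and 1.09 without that library. CDKN2C, the p18INK4c gene, ranged from 21.4 to 28.1 CPM in Grow (median 25.3) and from 0.331 to 1.24 in OIS (median 0.792), where its raw counts were 1 to 25 per library. It showed the greatest difference of the 9 genes, -4.91 (SE 0.133, edgeR adjusted p = 4.75e-23), and -4.90 without OIS replicate 4. CDKN2D, the p19INK4d gene, ranged from 12 to 17.2 CPM in Grow (median 14.5) and from 1.95 to 6.48 in OIS (median 5.53). All OIS libraries were lower, by -1.43 (SE 0.125, edgeR adjusted p = 2.79e-11).

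CDKN1B, the p27KIP1 gene, ranged from 12 to 18.8 CPM in Grow (median 14.9) and from 4.39 to 8.64 in OIS (median 7.12). It was lower in all OIS libraries by -0.99 (SE 0.0951, edgeR adjusted p = 2.18e-10). CDKN1C, the imprinted p57KIP2 gene, was near the detection limit, with 0.648 to 1.53 CPM in Grow (median 1.01) and 0.326 to 0.58 in OIS (median 0.457, 1 to 11 raw counts). It too was lower in every OIS library, by -1.19 (SE 0.259, edgeR adjusted p = 0.000159).

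RB1 was the most abundant pocket protein transcript, with 144 to 167 CPM in Grow (median 164) and 79.9 to 98.3 in OIS (median 87.9). The groups were apart and the log2 fold change was -0.83 (SE 0.0471, edgeR adjusted p = 1.98e-15). RBL1 ranged from 37.2 to 45.9 CPM in Grow (median 41.9) and from 9.7 to 14.6 in OIS (median 11.1), a fall of -1.90 (SE 0.066, edgeR adjusted p = 1.54e-20). RBL2 ranged from 57.9 to 65.5 CPM in Grow (median 60.8) and from 52.5 to 67.7 in OIS (median 59.9). These RBL2 groups overlapped, with a log2 fold change of -0.03 (SE 0.0522, edgeR adjusted p = 0.667) that turned to 0.16 (adjusted p = 0.00533) with library sizes alone. Without OIS replicate 4, the same 8 genes were called, against 75.5% of all genes.

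**Figure D1:**
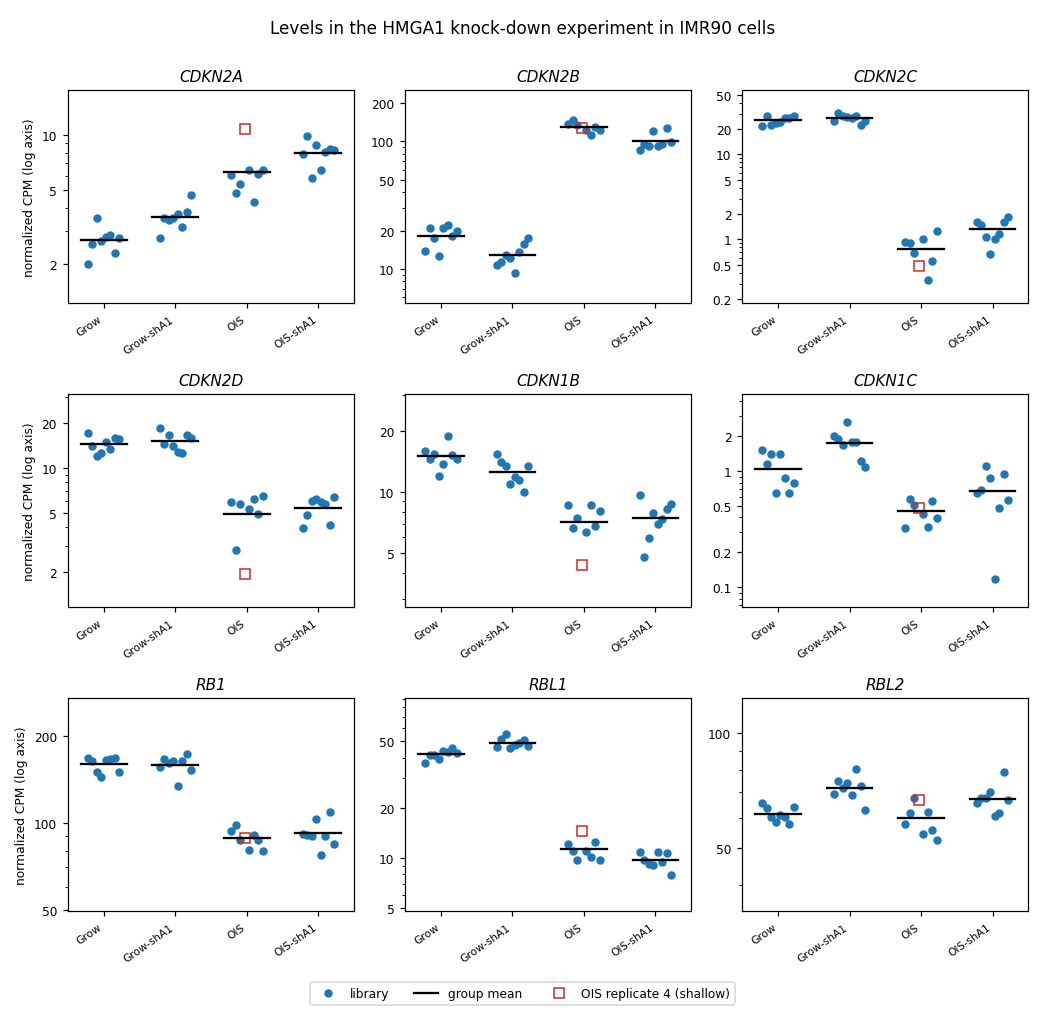
Normalized CPM (log axis) of the 9 genes in each library of the first experiment, ordered Grow, Grow-shA1, OIS, OIS-shA1, with group means as bars and the shallow OIS replicate 4 as an open square. CDKN2B and CDKN2A lie higher in the 2 OIS groups, RBL2 lies between 52.5 and 80.6 CPM in all groups, and CDKN2C drops from above 21 to below 2 CPM.

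The same contrast in the second experiment again gave 8 of 9 genes called, against 45.8% of 13344 genes tested (22.7% higher, 23.2% lower). CDKN2B measured 13.6, 13.4, 13.3, 7.64 and 6.24 CPM in Grow-v-v replicates 1 to 5 and 95.5, 94.8, 96.3, 109 and 85 in OIS-v-v, a rise of 3.15 (SE 0.202, edgeR adjusted p = 1.57e-07). CDKN2A measured 8.82, 8.46, 10.5, 9.62 and 10.8 CPM in Grow-v-v and 29.5, 30.4, 27.3, 16.2 and 15.9 in OIS-v-v, a rise of 1.31 (SE 0.194, adjusted p = 0.000133). The OIS-v-v libraries were all above Grow-v-v for both genes, but replicates 4 and 5 held less CDKN2A than replicates 1 to 3. Within replicates 1 to 3 the CDKN2A log2 fold change was 1.64 (SE 0.0927) and within replicates 4 and 5 it was 0.66 (SE 0.17), whereas that of CDKN2B was 2.82 and 3.81. CDKN2C measured 43.4, 40.7, 40.6, 65.7 and 66 CPM in Grow-v-v and 6.07, 6.18, 5.97, 6.79 and 5.79 in OIS-v-v. It fell by -3.05 (SE 0.169, adjusted p = 5.31e-08), and the OIS-v-v libraries were closely grouped. CDKN2D measured 18.2, 17.7, 19.5, 25.2 and 30.5 CPM in Grow-v-v and 11.4, 9.81, 9.25, 11.1 and 9.77 in OIS-v-v (-1.10, SE 0.156, edgeR adjusted p = 9.52e-05).

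CDKN1B measured 20.3, 18.5, 20.8, 20.5 and 17.4 CPM in Grow-v-v and 9.27, 9.33, 8.13, 11.8 and 10.3 in OIS-v-v, a fall of -0.99 (SE 0.114, edgeR adjusted p = 1.82e-05). CDKN1C measured 3.46, 4.88, 4.47, 2.59 and 2.52 CPM in Grow-v-v and 1.97, 1.49, 1.99, 2.06 and 1.21 in OIS-v-v (-1.04, SE 0.232, edgeR adjusted p = 0.00285). All OIS-v-v libraries lay below Grow-v-v for both KIP genes. RB1 measured 94.9, 79.6, 76.8, 92.6 and 67.2 CPM in Grow-v-v and 50, 51.9, 49.9, 66.7 and 60.3 in OIS-v-v (-0.56, SE 0.117, edgeR adjusted p = 0.0019). RBL1 measured 35.5, 31.4, 27.6, 44.2 and 37.9 CPM in Grow-v-v and 7.76, 8.5, 9.3, 16.6 and 15.4 in OIS-v-v (-1.61, SE 0.219, edgeR adjusted p = 7.19e-05). RB1 and RBL1 were lower in every OIS-v-v library. Replicates 4 and 5 of OIS-v-v held more RBL1 than replicates 1 to 3. RBL2 measured 47.9, 54.5, 53.7, 36.8 and 31.3 CPM in Grow-v-v and 42, 41.3, 39.7, 46.4 and 42.5 in OIS-v-v (-0.08, SE 0.142, edgeR adjusted p = 0.694). For RBL2 the 2 sets of replicates went in opposite directions, -0.35 (SE 0.0661, adjusted p = 7.4e-05) within replicates 1 to 3 and 0.39 (SE 0.154, adjusted p = 0.0563) within replicates 4 and 5; the part of whatever separates the sets was not tested. In replicates 4 and 5 alone, CDKN1C (-0.63, adjusted p = 0.137) and RB1 (-0.33, adjusted p = 0.129) did not pass.

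HMGA1-depleted cells also passed through the OIS contrast. In OIS-shA1 against Grow-shA1, 8 of 9 genes were called, against 73.1% of 13239 genes tested (37.1% higher, 36% lower). The log2 fold changes were 1.15 for CDKN2A, 2.98 for CDKN2B, -4.33 for CDKN2C and -1.49 for CDKN2D among the INK4 genes. They were -0.75 for CDKN1B, -1.35 for CDKN1C, -0.78 for RB1 and -2.32 for RBL1, with SE between 0.0574 and 0.26, and -0.08 (SE 0.0523, edgeR adjusted p = 0.151) for RBL2. CDKN1C was the called gene whose OIS-shA1 and Grow-shA1 libraries overlapped.

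**Figure D2:**
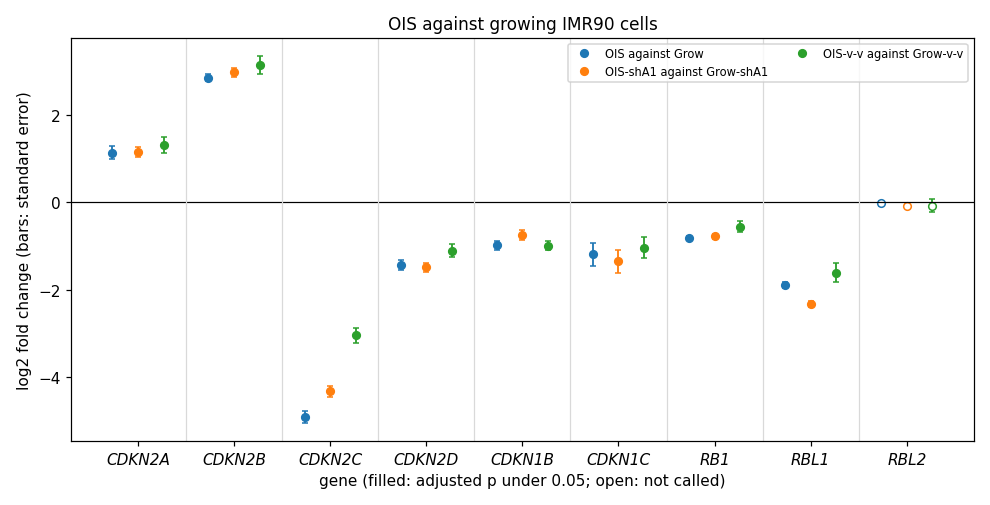
Log2 fold change with its standard error for the 9 genes in the 3 OIS contrasts (OIS against Grow, OIS-shA1 against Grow-shA1, OIS-v-v against Grow-v-v); filled points passed an adjusted p of 0.05. CDKN2A and CDKN2B are above 0 and 6 genes below 0 in all 3, CDKN2C spreads from -4.91 to -3.05, and the open RBL2 points lie between -0.08 and -0.03 with TMM factors, the first of them turning to 0.16 with library sizes alone.

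The next question was what HMGA1 knock-down does to these genes. In growing cells, 6 of 9 were called, against 29.9% of 13072 genes tested (14.8% higher, 15.1% lower; 1930 higher and 1975 lower with TMM factors, 2424 and 1597 with library sizes alone). In OIS, 4 of the 8 genes tested were called, against 35.9% of 13327 (18.8% higher, 17.1% lower; 2500 and 2284 with TMM factors, 1553 and 4037 with library sizes alone). In both states CDKN2A and RBL2 were higher and CDKN2B lower after knock-down, each by less than 1.5-fold and with overlapping libraries. CDKN2A ranged from 2.74 to 4.72 CPM in Grow-shA1 (median 3.53), with a log2 fold change of 0.41 (SE 0.134, edgeR adjusted p = 0.02). In OIS-shA1 it ranged from 5.8 to 9.86 CPM (median 8.16), 0.44 above OIS (SE 0.124, adjusted p = 0.00613) and 0.48 without OIS replicate 4. CDKN2B ranged from 9.26 to 17.5 CPM in Grow-shA1 (median 12.5; -0.50, SE 0.118, edgeR adjusted p = 0.00187). In OIS-shA1 it ranged from 85.1 to 128 CPM (median 95.1; -0.36, SE 0.0684, edgeR adjusted p = 0.000135), so the neighbours at 9p21 went in opposite directions.

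CDKN2C differed between the states. It ranged from 22.2 to 30.2 CPM in Grow-shA1 (median 27; 0.08, SE 0.0683, edgeR adjusted p = 0.419) and from 0.672 to 1.83 in OIS-shA1 (median 1.31; 0.68, SE 0.249, adjusted p = 0.0329). The interaction of knock-down with OIS was 0.60 (SE 0.219, edgeR adjusted p = 0.0427), 0.58 (adjusted p = 0.0492) without OIS replicate 4, and no longer passed with library sizes alone (0.48, adjusted p = 0.0898). The OIS-shA1 libraries held 10 to 29 raw CDKN2C counts, and both CDKN2C calls were lost without the filter on low counts. CDKN2D ranged from 12.5 to 18.6 CPM in Grow-shA1 (median 15.2) and from 3.94 to 6.38 in OIS-shA1 (median 5.81), and passed in neither state (0.08, adjusted p = 0.535, and 0.04, adjusted p = 0.861, edgeR).

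CDKN1B ranged from 10.0 to 15.3 CPM in Grow-shA1 (median 12.6), lower by -0.25 (SE 0.0888, edgeR adjusted p = 0.034), and from 4.8 to 9.63 in OIS-shA1 (median 7.66; adjusted p = 0.992). CDKN1C ranged from 1.08 to 2.65 CPM in Grow-shA1 (median 1.79), higher by 0.74 (SE 0.219, edgeR adjusted p = 0.0118). In OIS it did not pass the filter on low counts with all libraries. Without OIS replicate 4, all 9 genes were tested and CDKN1C was not called. RB1 passed in neither state, with medians of 162 CPM in Grow-shA1 and 90.3 in OIS-shA1 (adjusted p = 0.962 and 0.469, edgeR). RBL1 ranged from 45.4 to 55.1 CPM in Grow-shA1 (median 48.5; 0.24, SE 0.0487, edgeR adjusted p = 0.000509) and from 7.96 to 10.9 in OIS-shA1 (median 9.62; -0.18, SE 0.0866, adjusted p = 0.11). The interaction was -0.41 (SE 0.0919, edgeR adjusted p = 0.000887), and -0.40 without OIS replicate 4. RBL2 ranged from 62.8 to 80.6 CPM in Grow-shA1 (median 72.3; 0.23, SE 0.0452, edgeR adjusted p = 0.000332) and from 60.9 to 78.9 in OIS-shA1 (median 67.1; 0.18, SE 0.0577, adjusted p = 0.0135). CDKN2C and RBL1 were thus the 2 of 9 genes with a called interaction, against 23.6% of 13903 genes (12.2% positive, 11.4% negative; 1697 and 1584 with TMM factors, 888 and 3456 with library sizes alone). With library sizes alone, CDKN2C and RBL2 no longer passed in OIS-shA1 against OIS and RBL1 did, and CDKN1B no longer passed in Grow-shA1 against Grow. Without OIS replicate 4, the same 4 genes were called in OIS-shA1 against OIS (38.4% of all genes) and the same 2 for the interaction (24.6%).

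In the second experiment the question was which of the OIS levels depend on C/EBPβ and p53. Its 3 knock-down groups share the OIS-v-v libraries as controls. CDKN2A had its highest mean in the double knock-down, and the interaction of the hairpins passed for none of the 9 genes over all 5 replicates. CEBPB knock-down called 1 of 9 genes (17.1% of 13396 genes called, 9.09% higher, 8% lower; 1218 and 1072 with TMM factors, 1787 and 734 with library sizes alone), p53 knock-down 2 of 9 (4.44% of 13378, 2.47% higher, 1.97% lower), and the double knock-down 6 of 9 (33.6% of 13388, 17.1% higher, 16.5% lower; 2293 and 2209 with TMM factors, 3331 and 1360 with library sizes alone). With the replicate number as a block, the counts were 3, 5 and 7, against 31.9%, 22.7% and 43.4% of all genes called with the block. The count for CEBPB knock-down was thus near its background. Same-numbered libraries always fall in the same set of replicates (1 to 3, or 4 and 5). A pairing by number therefore cannot be told apart from the separation of these sets.

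CDKN2A measured 36.2, 33.2, 36.9, 30.9 and 30.6 CPM in OIS-shCEBPB, 40.1, 38.1, 39.5, 33.7 and 31.2 in OIS-shp53, and 51.5, 51.1, 53, 41.7 and 46.9 in OIS-shCEBPB-shp53. Every library of each knock-down lay above the 5 OIS-v-v libraries, which reached 30.4. The log2 fold changes were 0.49 (SE 0.179, edgeR adjusted p = 0.0836), 0.61 (SE 0.183, adjusted p = 0.0864) and 1.03 (SE 0.179, adjusted p = 0.000936). With the replicate block the single knock-downs also passed, at 0.53 (SE 0.109, edgeR adjusted p = 0.00282) and 0.65 (SE 0.0937, adjusted p = 0.000412). Within replicates 1 to 3 the 3 values were 0.28, 0.44 and 0.84, and within replicates 4 and 5, where OIS-v-v was low, they were 0.94, 1.01 and 1.46.

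CDKN2B measured 109, 103, 89.5, 114 and 114 CPM in OIS-shCEBPB, 86.9, 78.5, 76.8, 110 and 101 in OIS-shp53, and 105, 109, 103, 103 and 103 in the double knock-down. All 3 groups overlapped OIS-v-v and none passed (0.14, -0.09 and 0.12; edgeR adjusted p = 0.281, 0.692 and 0.162). CDKN2C measured 7.17, 6.58, 7.41, 9.83 and 9.51 CPM in OIS-shCEBPB, 7.97, 8.24, 9.47, 5.91 and 6.1 in OIS-shp53, and 12.3, 10.1, 12.1, 10.5 and 9.56 in the double knock-down. The double knock-down libraries alone lay wholly above OIS-v-v, with a log2 fold change of 0.82 (SE 0.098, edgeR adjusted p = 5.41e-05). They stayed below the lowest Grow-v-v value, 40.6 CPM. CEBPB knock-down gave 0.39 (SE 0.127, edgeR adjusted p = 0.0518; 0.39 with the block, adjusted p = 0.0161). The p53 knock-down gave 0.29 (SE 0.137, edgeR adjusted p = 0.261), which was 0.49 within replicates 1 to 3 and -0.07 within replicates 4 and 5. CDKN2D measured 7.68, 9.2, 9.17, 6.76 and 8.3 CPM in the double knock-down, all below OIS-v-v (-0.32, SE 0.107, edgeR adjusted p = 0.0347), a call lost in 5 of 10 fits without 1 library (OIS-v-v 1 or 4, double knock-down 1, 4 or 5, adjusted p up to 0.0883), and passed in neither single knock-down.

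CDKN1C passed in all 3 knock-downs, but the p53 call was lost without OIS-shp53 replicate 1, 2, 3 or 5 or OIS-v-v replicate 2 (adjusted p up to 0.0719). It measured 2.74, 2.62, 2.57, 3.73 and 2.93 CPM in OIS-shCEBPB, 3.47, 3.01, 3, 2.5 and 3.12 in OIS-shp53, and 4.71, 3.03, 3.97, 3.2 and 3.23 in the double knock-down. These were all above the OIS-v-v libraries, which reached 2.06. The log2 fold changes were 0.74 (SE 0.182, edgeR adjusted p = 0.0146), 0.79 (SE 0.17, adjusted p = 0.0232) and 1.05 (SE 0.187, adjusted p = 0.0011). CDKN1B measured 11.3, 11.7, 12.7, 11.8 and 11.9 CPM in the double knock-down, 0.28 above OIS-v-v (SE 0.0982, edgeR adjusted p = 0.0455), with overlap. This call was lost in 9 of 10 fits that left out 1 library, all but that without OIS-v-v replicate 4 (edgeR adjusted p up to 0.106). In the p53 knock-down it measured 11, 11, 9.89, 13.3 and 12.7 CPM (0.24, adjusted p = 0.277; 0.25 with the block, adjusted p = 0.0337, edgeR).

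Among the pocket protein genes, RB1 measured 66.7, 68.6, 61.9, 74 and 69.1 CPM in the double knock-down (0.29, SE 0.0839, edgeR adjusted p = 0.0199), with 4 of 5 libraries above every OIS-v-v library. The call was lost in 4 of 10 fits without 1 library (OIS-v-v 1, 2 or 3, double knock-down 4, edgeR adjusted p up to 0.0531). In OIS-shp53 it measured 61.9, 60.8, 54.7, 71.8 and 65.9 CPM (0.18, adjusted p = 0.337; 0.18 with the block, adjusted p = 0.0135, edgeR). RBL2 measured 51.5, 49.3, 47.7, 51.5 and 49.3 CPM in OIS-shp53, all above OIS-v-v (0.23, SE 0.0526, edgeR adjusted p = 0.0274). RBL2 was thus the pocket protein gene called in the p53 knock-down alone, but the call was lost without OIS-v-v replicate 1, 2 or 3 or OIS-shp53 replicate 1, 2, 4 or 5, with library sizes alone and without the filter on low counts. RBL1 measured 12.4, 16.8, 14.8, 17.6 and 15.1 CPM in the double knock-down (0.41, SE 0.204, edgeR adjusted p = 0.14; 0.45 with the block, SE 0.137, adjusted p = 0.0205). Its value was 0.79 within replicates 1 to 3 and 0.04 within replicates 4 and 5. Of the 2 calls of the p53 knock-down, none was left without OIS-v-v replicate 2 or OIS-shp53 replicate 1, 2 or 5, and 8 genes were called in replicates 1 to 3 alone (34% of all genes) against 1 in replicates 4 and 5 (5.33%), so the whole table moved in the same way. Of the 6 calls of the double knock-down, 3 were left without OIS-v-v replicate 1 or OIS-shCEBPB-shp53 replicate 4, where CDKN1B, CDKN2D and RB1 no longer passed. Without the filter on low counts CDKN1B and CDKN2D did not pass. CEBPB knock-down called 2 genes, CDKN2C added, without OIS-shCEBPB replicate 2 or OIS-v-v replicate 4.

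The interaction of the 2 hairpins was called in 0 of 9 genes by edgeR and in 0 by DESeq2, against 0.0432% of 13873 genes in edgeR (0.0216% positive, 0.0216% negative); 682 genes had an unadjusted p under 0.05, and 0 of the 9 did. The estimates ran from -0.47 (SE 0.231) for CDKN1C to 0.18 (SE 0.151) for CDKN1B. In simulated counts with known changes, the edgeR test of this interaction recovered 38.8% of 1.5-fold and 71.6% of 2-fold changes. The lack of calls therefore says little about interactions of such sizes or smaller. For CDKN2A the interaction was -0.07 (SE 0.208). It was 0.12 (SE 0.0834, edgeR adjusted p = 0.554) within replicates 1 to 3 and -0.50 (SE 0.123, adjusted p = 0.0322) within replicates 4 and 5. That of CDKN2B was 0.31 (SE 0.0846, edgeR adjusted p = 0.039) within replicates 1 to 3 and -0.27 (SE 0.111, adjusted p = 0.249) within replicates 4 and 5. Of all genes, 3.32% were called in replicates 1 to 3 and 2.13% in replicates 4 and 5. With the replicate block 104 of 13873 genes (0.75%) and 0 of the 9 were called.

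**Figure D3:**
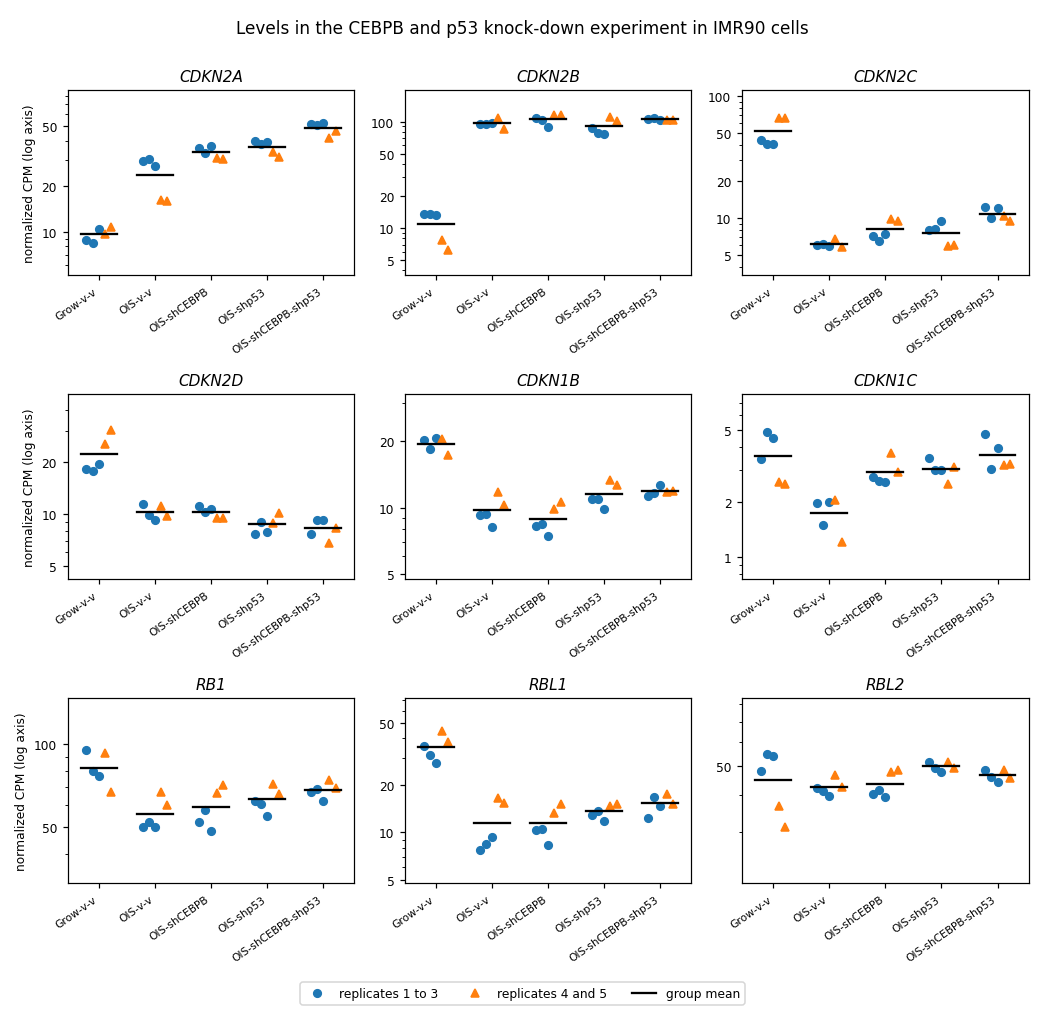
Normalized CPM (log axis) of the 9 genes in each library of the second experiment, with replicates 1 to 3 as circles, replicates 4 and 5 as triangles and group means as bars. CDKN2A reaches 41.7 to 53 CPM in the double knock-down. The 2 sets of replicates lie apart, among others, for CDKN2A and RBL1 in OIS-v-v and for CDKN2B and RBL2 in Grow-v-v.

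In H1299 cells the HMGA1 hairpin called 3 of the 8 genes tested, against 15.6% of 14840 genes (8.65% higher, 6.93% lower), each by less than 1.5-fold. CDKN2C ranged from 49.0 to 55.0 CPM in H1299 (median 51.9) and from 59.1 to 63.4 in H1299-shA1 (median 60.4). All knock-down libraries were higher, by 0.23 (SE 0.0387, edgeR adjusted p = 0.000472). RBL2 ranged from 84.3 to 88.9 CPM in H1299 (median 86.1) and from 74.2 to 82.1 in H1299-shA1 (median 78.4), all lower, by -0.14 (SE 0.0355, edgeR adjusted p = 0.0133). CDKN2D ranged from 24.3 to 28.6 CPM in H1299 (median 26.8) and from 21.3 to 25.8 in H1299-shA1 (median 24.2), with overlap (-0.17, SE 0.0561, edgeR adjusted p = 0.0435); this call was lost without the filter on low counts and in 9 of 13 fits without 1 library (H1299 1, 2, 3, 6 or 7, H1299-shA1 2, 4, 5 or 6, adjusted p up to 0.111). CDKN2A ranged from 127 to 137 CPM in H1299 (median 130) and from 108 to 152 in H1299-shA1 (median 121). Of the 6 knock-down libraries, 2 lay above and 4 below all H1299 libraries, and the difference did not pass (-0.05, SE 0.0631, edgeR adjusted p = 0.622). CDKN2B ranged from 57.0 to 65.1 CPM in H1299 and from 49.7 to 63.4 in H1299-shA1 (-0.08, SE 0.0514, edgeR adjusted p = 0.315). CDKN1B ranged from 44.3 to 49.4 and from 39.2 to 47.2 CPM (-0.12, SE 0.0501, edgeR adjusted p = 0.112). RBL1 ranged from 76.8 to 81.4 and from 67.6 to 77.2 CPM (-0.11, SE 0.0394, edgeR adjusted p = 0.0598). CDKN1B and RBL1 both passed when H1299-shA1 replicate 7 was left out, which gave 5 called genes. RB1 ranged from 135 to 155 and from 128 to 153 CPM (0.01, SE 0.044, edgeR adjusted p = 0.886). CDKN1C, with 1 to 9 raw counts in H1299 and 7 to 13 in H1299-shA1, did not pass the filter on low counts.

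**Figure D4:**
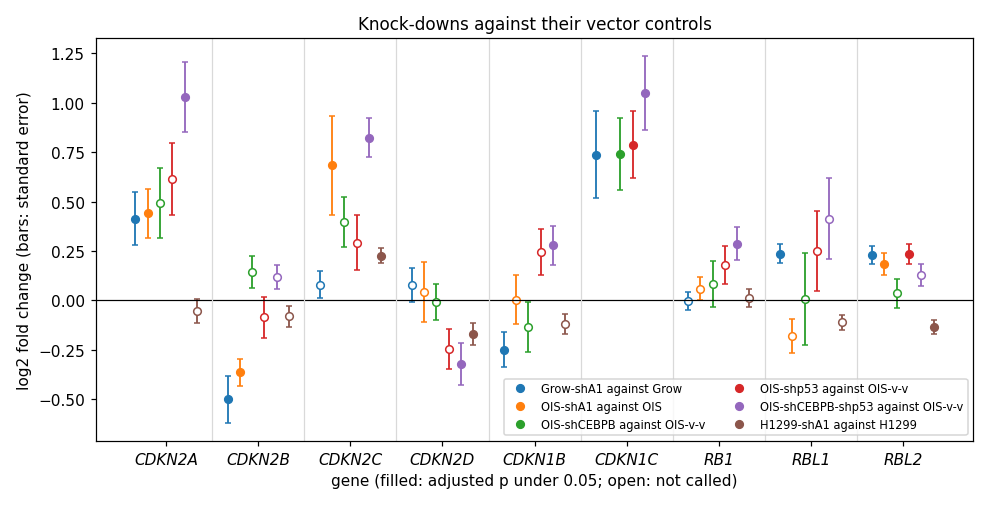
Log2 fold change with its standard error for the 9 genes in the 6 knock-down contrasts, each against its own vector control; filled points passed an adjusted p of 0.05. The greatest values are 1.05 for CDKN1C and 1.03 for CDKN2A in the double knock-down, CDKN2B is lowest at -0.50 in Grow-shA1, and the 3 contrasts of the second experiment share the OIS-v-v controls.

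Per exon length, the order of the 9 genes changed with the state. In Grow, RB1 had the highest mean at 25.8 CPM per kb, followed by CDKN2D (9.62), CDKN1B (9.11), RBL2 (8.76), CDKN2C (7.52) and RBL1 (7.02), whose neighbours in this order overlapped between libraries. CDKN2B (4.51), CDKN2A (0.633) and CDKN1C (0.448) came last. In OIS, CDKN2B led with 32.1 CPM per kb, above RB1 (14.3) and RBL2 (8.53), and each of these was apart from the next gene. CDKN1B (4.33) and CDKN2D (3.27) overlapped, as did RBL1 (1.91) and CDKN2A (1.49), and CDKN2C (0.231) and CDKN1C (0.192). In Grow-v-v the order differed: CDKN2C (15.5 CPM per kb), CDKN2D (14.8) and RB1 (13.3) came first, each overlapping its neighbour, before CDKN1B (11.8). In OIS-v-v the order again began with CDKN2B (23.8) and RB1 (9.04). In H1299, CDKN2A led with 31.1 CPM per kb, above CDKN1B (28.3) and RB1 (23.5), and CDKN1C was at 0.138.

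As a share of the 4 INK4 genes' CPM per kb, CDKN2B made up 15.6 to 23.6% in Grow and 83.1 to 91.7% in OIS. CDKN2D took 38.5 to 52.6% and CDKN2C 29.7 to 36.3% in Grow, against 3.65 to 12.3% and 0.3 to 1.01% in OIS. In the second experiment CDKN2B rose from 3.49 to 11.3% in Grow-v-v to 59.1 to 67.2% in OIS-v-v. CDKN2A stayed between 2.16 and 7.14% of the INK4 total in the Grow and OIS libraries, was 9.52 to 18.4% in OIS-v-v and 22.8 to 26.2% in the double knock-down, and 37.2 to 41.2% in H1299. Among the pocket protein genes, RBL1 made up 14.6 to 17.9% of CPM per kb in Grow and 6.45 to 9.32% in OIS, and RBL2 19.2 to 22.5% and 32.4 to 38%. RB1 remained the largest part, at 59.9 to 63.4% in Grow and 54.6 to 59.9% in OIS. CDKN1B made up at least 84.4% of the KIP pair in every library of Grow, OIS, Grow-v-v, OIS-v-v and H1299. A share moves whenever another member moves, so these values describe the make-up and not separate changes.

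**Figure D5:**
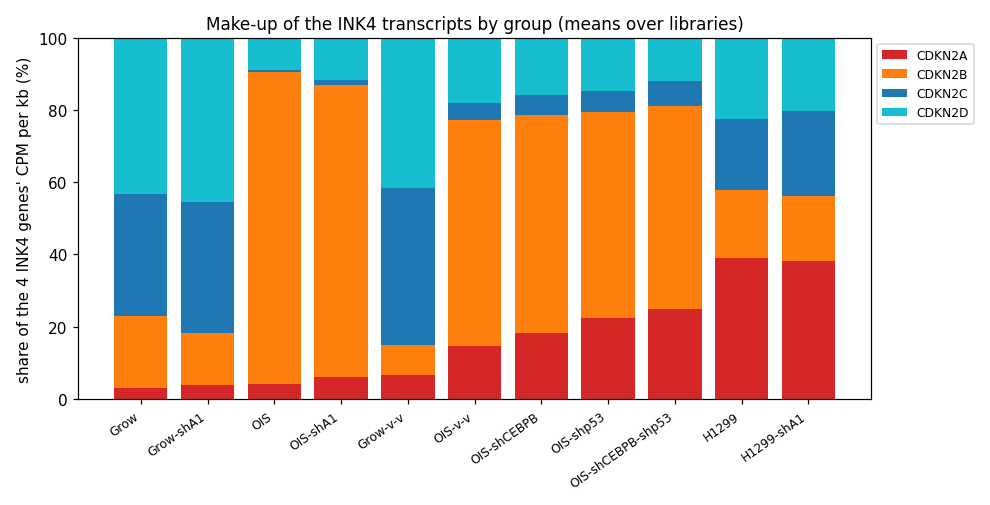
Mean share (%) of each INK4 gene in the summed CPM per kb of the 4 INK4 genes, by group. CDKN2B fills most of every OIS bar (86.5% in OIS, 62.5% in OIS-v-v), CDKN2C and CDKN2D most of the growing bars, and CDKN2A is largest in H1299 at 39.1%.

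The other genes of the pathway were taken from fixed lists, and each count is read against the share of all genes called, 74.8% in OIS against Grow. Of 12 E2F target genes of S phase, 12 fell in OIS against Grow, among them CCNA2 (-3.80), the cyclin of S phase, and MCM6 (-2.70), a subunit of the replicative helicase. Of the 8 D and E cyclins and their kinases, 5 fell, including CDK6 (-1.63) and CDK2 (-1.72), and 2 rose, CDK4 (0.84) and CCNE1 (0.63) (exon overlap with a gene on the other strand covers 47.7% of CDK4, with TSPAN31). Of 10 E2F and DP factors, 6 fell, led by E2F8 (-4.58), and 3 rose, led by E2F7 (1.69). Of 6 genes of MuvB and B-MYB, the partners of the pocket proteins in DREAM and of its activating counterpart, 4 fell, led by MYBL2 (-4.07), and LIN37 rose (0.48), with 52.5% of its exons overlapped by other genes. Of the 5 genes of the SCF-SKP2 ligase, which marks the CDKN1B protein for degradation, 4 fell, including CKS1B (-2.39) and SKP2 (-0.80), while CDKN1B transcript was itself lower. Of 11 regulators of the INK4 locus, 7 were called, 3 lower and 4 higher, which does not exceed the 74.8% of all genes. EZH2 fell (-1.98) and KDM6B rose (1.48). The Polycomb gene CBX7 (0.66) and ETS2 (0.51) also rose and ID1 (-0.30) fell, with values from the fit without OIS replicate 4. The small fall of ETS1 (-0.17) turned to 0.02 with library sizes alone. At 9p21, the neighbour MTAP, a methionine salvage enzyme, rose by 0.82 (SE 0.0515, edgeR adjusted p = 1.82e-14), and by 0.72 in OIS-v-v against Grow-v-v. The median log2 fold change was -1.53 over the S-phase list, against 0.03 over all genes tested. In OIS-v-v against Grow-v-v, the same 12 genes of 12 fell, with a list median of -1.57 against 0.01 over all genes. There, 45.8% of all genes were called, and 4 of the 8 D and E cyclins and kinases. CCND1 rose (0.49) and CDK6 fell (-1.40), and CDK4 (0.24, edgeR adjusted p = 0.168) and CCNE1 (0.30, adjusted p = 0.0944) did not pass. LIN37 did not pass (0.18, edgeR adjusted p = 0.465), and ETS1 rose (0.35, adjusted p = 0.00257). Without OIS replicate 4, the counts of these lists in OIS against Grow were the same in each direction, except that 6 cyclins and kinases fell.

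After HMGA1 knock-down in growing cells, 10 of the 12 S-phase genes rose, by up to 0.32 (MCM2), with a list median of 0.24 against 0.01 over all genes and 14.8% of all genes called higher. In OIS-shA1 against OIS, 4 of 12 fell, led by TYMS (-0.36), against 17.1% of all genes called lower and 18.8% higher. The interaction was called and negative in 9 of 12, led by MCM7 (-0.55), as it was for RBL1 and for E2F1 (-0.68), against 11.4% of all genes called and negative. Without OIS replicate 4, 4 S-phase genes fell and 1 rose in OIS-shA1 against OIS, and the interaction was negative in 9. DMRTA1, a gene beyond CDKN2B at 9p21, was lower in OIS-shA1 than in OIS (-1.27, SE 0.32, edgeR adjusted p = 0.00263). It did not pass the filter on low counts in OIS against Grow, where MTAP was the 1 neighbour tested. The interaction of knock-down with OIS was called in 0 of the 2 neighbours tested. In the double knock-down (33.6% of all genes called, 17.1% higher) 6 of 12 S-phase genes rose, led by CCNA2 (1.13), along with CDK2 (0.80), SKP2 (0.80) and CKS1B (1.05), whereas E2F2 fell (-1.02). CCNE1 and CCNE2 also fell there, and the CCNE2 call was lost in 2 of 10 fits without 1 library. CEBPB knock-down raised CDK6 (0.60) and SKP2 (0.47) and lowered 1 S-phase gene, MCM6 (-0.29). These were the only calls among 8 cyclins and kinases, 5 SCF-SKP2 genes and 12 S-phase genes. Of the 10 E2F and DP factors 2 were called, and of the MuvB and B-MYB genes and the INK4 locus regulators none. The counts of these lists were thus near or below the 17.1% of all genes called. The SKP2 call was lost in 6 of 10 fits without 1 library (OIS-v-v 1, 2 or 3, OIS-shCEBPB 2, 4 or 5, edgeR adjusted p up to 0.0886). The p53 knock-down (4.44%) called 1 gene over these pathway lists, the DP factor TFDP2 (0.53). This call was lost in 4 of 10 such fits (OIS-v-v 1, OIS-shp53 1, 2 or 3, edgeR adjusted p up to 0.0672). TFDP2 also rose in CEBPB knock-down (0.49 to 0.57 over such fits) and in the double knock-down (0.86 to 0.94). It rose in OIS-shA1 against OIS as well (0.50 without OIS replicate 4). In H1299-shA1, 2 of 12 S-phase genes were called, MCM3 lower (-0.18) and RRM2 higher (0.18), which is near the 15.6% of all genes called.

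As a description over the 32 libraries of the first experiment, which fall into 4 groups and share their depth differences, each gene was compared with 12564 genes by Pearson's r of log2 CPM. CDKN2B was most like TNFRSF10B (0.991) and SLC20A1 (0.989), and CDKN2A most like DNALI1 (0.938) and SDCCAG8 (0.929). CDKN2C was most like FZD7 (0.991) and NUSAP1 (0.99), RBL1 like CKAP2L (0.994) and NCAPD2 (0.993), and CDKN2D like TSPAN4 (0.967) and NUCB1 (0.964). CDKN1B was most like PPIC (0.921) and GXYLT1 (0.919), and RB1 like ANP32E (0.984) and SERINC1 (0.982). RBL2 had the weakest best matches, IRAK3 and CTSK (both 0.789), and CDKN1C, with a mean under 1 CPM, was not ranked.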

How the data were processed

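RNA-seq of 70 libraries was analysed. The deposited values were raw counts per gene: per the methods and the table headers, the authors used STAR for alignment (hg19) and featureCounts (1.5.2 in the headers) for counts over GENCODE exons, without regard to strand in the first experiment and in H1299; the second table has no header. The labels describe stranded mRNA libraries from biological replicates and do not tie kits or instruments to libraries. Symbols were matched for 42662 of 44503 identifiers (95.9%), and 86 of 87 listed genes were found.

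Comparisons were fitted on their own groups in edgeR 4.0.16 in R 4.3.3 (TMM factors, filterByExpr with a minimum of 10 counts, quasi-likelihood F test, Benjamini-Hochberg adjustment over all genes tested, called under 0.05). The SE is the log2 fold change divided by the square root of F. Interactions were fitted over all groups they involve. The fits were tested on simulated data. Alternatives were DESeq2 1.42.0, library sizes alone, no filter, an adjusted p of 0.01, a 1.5-fold limit, all groups in 1 fit, a replicate block and libraries left out; the splits and the batch term for replicates 4 and 5 of the second experiment were chosen after seeing the data. The member genes and lists were chosen with earlier results of these data known.

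Named were all 9 genes, the knocked-down genes (1 of which is not reported here), the 9p21 neighbours, the genes with the largest called rises and falls of each list, and the 2 genes most like each member. In the second experiment, deviations of same-numbered libraries correlated at 0.152 to 0.638 in every pair, although the labels do not say what a number shares. Same-numbered libraries also fall in the same set of replicates (1 to 3, or 4 and 5). The separation of these sets could give such correlations by itself, so the check cannot decide whether the numbers pair the samples. No 2 libraries of the same group were duplicates, since their counts differed by at least 1.68 times the sampling noise (chi-square over its degrees of freedom). Promoter windows came from RefSeq, GRCh38.p14. No sequence was shown for CDKN1C. Figures were drawn with matplotlib 3.10.9.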

Additional observations from a re-analysis of the deposited data

Results flagged for a closer look

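In 3 of 99 sets of a gene within a group, 1 library lay far from the others, where chance alone flags about 1 in 20 groups. CDKN2A measured 10.7 CPM in OIS replicate 4, the library with the lowest total, against 4.31 to 6.44 in the other OIS libraries. CDKN1C measured 0.0486 CPM in H1299 replicate 7, which is 1 raw count, against 0.26 to 0.415 in the others. RB1 measured 128 CPM in H1299-shA1 replicate 3 against 147 to 153 in the others. The effect of HMGA1 knock-down differed between growing and OIS cells for CDKN2C (interaction 0.60) and RBL1 (interaction -0.41), by edgeR's test of the interaction itself.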

How the results depend on the processing

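The calls of the 3 OIS contrasts (8 of 9 genes each) stayed within 1.5 times under every alternative run. Under an adjusted p of 0.01, the called genes were 3 in Grow-shA1 against Grow, 2 in OIS-shA1 against OIS, 1 for the shA1 interaction, 0 for CEBPB knock-down, 0 for p53 knock-down, 3 for the double knock-down and 1 in H1299. With a fold change of at least 1.5 they were 1, 1, 1 for these first 3, then 1 for p53, 3 for the double knock-down and 0 for H1299. CEBPB knock-down called 2 with DESeq2, 2 with all groups in 1 fit, 3 with library sizes alone, 3 with the replicate block, 3 with the batch term, 2 in replicates 1 to 3 and 4 in replicates 4 and 5. The p53 knock-down called 1 with library sizes alone, 1 without the filter, 5 with the replicate block, 6 with the batch term, 8 in replicates 1 to 3 and 1 in replicates 4 and 5. The shA1 interaction called 1 with library sizes alone and 1 without the filter, and the hairpin interaction 1 in replicates 1 to 3 (CDKN2B) and 1 in replicates 4 and 5 (CDKN2A).

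Leaving out 1 library at a time gave 8 to 8 called genes in OIS-v-v against Grow-v-v, 1 to 2 for CEBPB, 0 to 2 for p53, 3 to 8 for the double knock-down, 0 to 0 for the hairpin interaction and 2 to 5 in H1299. Signs that turned were mostly of values not called. With library sizes alone they were RBL2 in OIS against Grow (0.16, called there) and OIS-shA1 against Grow-shA1 (0.0046), ETS1 in OIS against Grow (0.0158), RB1 in Grow-shA1 (0.0252), OIS-shA1 (-0.0287) and the interaction (-0.0539), CDKN2A for the interaction (-0.0877), CDKN1B (-0.0837) and CDKN2D (-0.0431) in OIS-shA1, and CDKN2D in OIS-shCEBPB (0.0606). CDKN1B in OIS-shA1, at 0.0021 in the original fit, became -0.0003 with all groups, -0.0094 without the filter, -0.0016 with the replicate block and -0.0229 without OIS replicate 4.

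In replicates 1 to 3 the turned values were RBL2 (-0.0309) and CDKN2D (0.0596) in OIS-shCEBPB, and RBL1 (-0.0011), CDKN2D (0.0296) and CDKN2A (0.1161) for the hairpin interaction. In replicates 4 and 5 they were CDKN2C (-0.0701), RBL1 (-0.097) and CDKN2B (0.1176) in OIS-shp53, RBL2 in OIS-v-v (0.3895), RBL1 in OIS-shCEBPB (-0.1691), and CDKN2B (-0.2698), CDKN1B (-0.0174) and RB1 (-0.0611) for the hairpin interaction. Single libraries left out gave ranges across 0 for CDKN2D (-0.0431 to 0.0329), RBL1 (-0.1068 to 0.1767) and RBL2 (-0.0041 to 0.0699) in OIS-shCEBPB, for CDKN2A (-0.1825 to 0.0459), CDKN2D (-0.1141 to 0.0019), RB1 (-0.0478 to 0.1074) and RBL1 (-0.0149 to 0.2773) in the hairpin interaction, and for RB1 in H1299 (-0.0040 to 0.0477). The cause was not tested.

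In the first experiment and in H1299 same-numbered libraries correlated at -0.207 to 0.369 and share only a number; the replicate block changed no count of calls there. CDKN2C and CDKN1C in OIS and CDKN1C in H1299 rest on few counts, which limits their precision.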
